A study of Mus musculus with 30 samples.

Results

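The genes described here are the 96 genes whose mean level was at least 0.5 lower on the log2 scale, a factor of at least 1.41, with each of 3 siRNAs than with the control siRNA in mouse embryonic fibroblasts in which p53 had been restored and DNA had been damaged. The siRNAs were directed at p53, at the long noncoding RNA lincRNA-p21 and at the RNA-binding protein hnRNP-K. The 96 were found among 12674 genes that were represented by 1 probe set each and passed a filter on low values. Of 99 genes past the limit, Krt18, Mmp10 and Mmp13 were left out by name, because keratin, matrix metalloproteinase, collagen and hnRNP genes were outside the rule. The choice used measured values: the 12 arrays of the hnRNPKKD experiment. Values from those arrays are therefore given as a description without a test. The tests below use 18 other arrays.

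All cells were mouse embryonic fibroblasts from E13.5 embryos, of strain C57BL/6 x 129SvJ and genotype p53 LSL/LSL, in which a stop cassette keeps the p53 gene silent until Cre recombinase removes it. In the hnRNPKKD experiment, cells received AdenoCRE, an adenovirus that carries Cre, for 24 h, then a p53 siRNA, a lincp21 siRNA, an hnRNPK siRNA or a control siRNA for 24 h, and then 100 nM doxorubicin, a DNA-damaging drug, for 13 h, with 3 arrays each. The lincP21KD experiment followed the same schedule with siP53 (3 arrays), siLincP21 (3 arrays) or siScramble (2 arrays). In the time course, cells received AdenoCRE or AdenoGFP for 24 h and then 500 nM doxorubicin for 0, 1, 3, 6 or 9 h, where 0 h means no drug, and each pairing of virus and time has 1 array. AdenoGFP cells keep the cassette and so lack restored p53. Every siRNA array came from AdenoCRE cells treated with doxorubicin, controls included, and no array held cells without siRNA in these 2 experiments. A rise with the control siRNA and a fall with the 3 other siRNAs therefore cannot be told apart. The labels do not say whether replicate arrays came from separate cultures, so the p-values measure only the spread between these arrays.

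p53 is a transcription factor that is stabilised after DNA damage and activates genes of cell cycle arrest, apoptosis and repair. lincRNA-p21 is transcribed next to Cdkn1a under p53, and hnRNP-K is a nuclear protein that binds RNA and DNA and was found to associate with lincRNA-p21. Fibroblasts also secrete growth factors, cytokines and guidance molecules.

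The knockdowns were checked on Hnrnpk and on Cdkn1a, the cell cycle inhibitor p21 and a direct p53 target. Hnrnpk stood at 8.38, 8.34 and 9.94 with hnRNPK siRNA, against 12.68, 12.03 and 12.47 with control siRNA. Its mean was lower by 3.51 on the log2 scale with hnRNPK siRNA than with control siRNA. Cdkn1a differed from control by -2.64 with p53 siRNA, 0.31 with lincp21 siRNA and 0.07 with hnRNPK siRNA, so it is not among the 96. Of 47 measured genes on a list of p53-activated targets, 36 were at least 0.5 lower with p53 siRNA, against 13.2% of all genes. Of the 47, 0 are among the 96. With all 3 siRNAs 0.781% of all genes were at least 0.5 lower, so 0 of 47 is near the background share. The levels of the p53 and lincRNA-p21 transcripts were not analysed here. The difference between the 3' and 5' probe sets of beta-actin (log2), a sign of RNA quality, was 0.69, 0.17 and 1.14 on the p53 siRNA arrays of the hnRNPKKD experiment, 0.44, 0.40 and 0.76 with lincp21 siRNA and 0.30 to 0.36 with hnRNPK siRNA, against 0.53, 0.32 and 0.36 with control siRNA. The highest value in the other experiments was 0.33. Without p53 siRNA array 3 and lincp21 siRNA array 3 the rule gave 98 genes, of which 83 are among the 96. Without p53 siRNA array 1 as well it gave 120 genes, of which 78 are among the 96.

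In the hnRNPKKD experiment the medians over the 96 genes were similar with the 3 siRNAs, which share 1 limit, while single genes differed widely. The median difference from control over the 96 was -0.98 with p53 siRNA, -0.92 with lincp21 siRNA and -0.86 with hnRNPK siRNA, beside -0.01, 0.01 and 0.00 over all 12674 genes. In bulk RNA such as this, fewer cells of a type and less RNA per cell cannot be told apart. The lowest of the 3 differences was that of p53 siRNA in 51 genes, lincp21 siRNA in 18 and hnRNPK siRNA in 27. The 3 differences share the 3 control arrays. Of all genes, 13.2% were at least 0.5 lower with p53 siRNA, 7.5% with lincp21 siRNA, 8.08% with hnRNPK siRNA and 0.781% with all 3. In 88 of the 96 genes all 9 siRNA arrays lay below all 3 control arrays, which held for 3.91% of all genes. These counts follow from the rule and are no evidence of their own. Just inside the limit, Fzd6, Fabp4, Lrig1 and Ttc9 had a smallest decrease of -0.50. Just outside, Nlk, Arhgap18, Got1 and Itga3 also came to -0.50 after rounding, and they differed by larger amounts with the other siRNAs, down to -1.79 for Nlk with lincp21 siRNA.

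**Figure D1:**
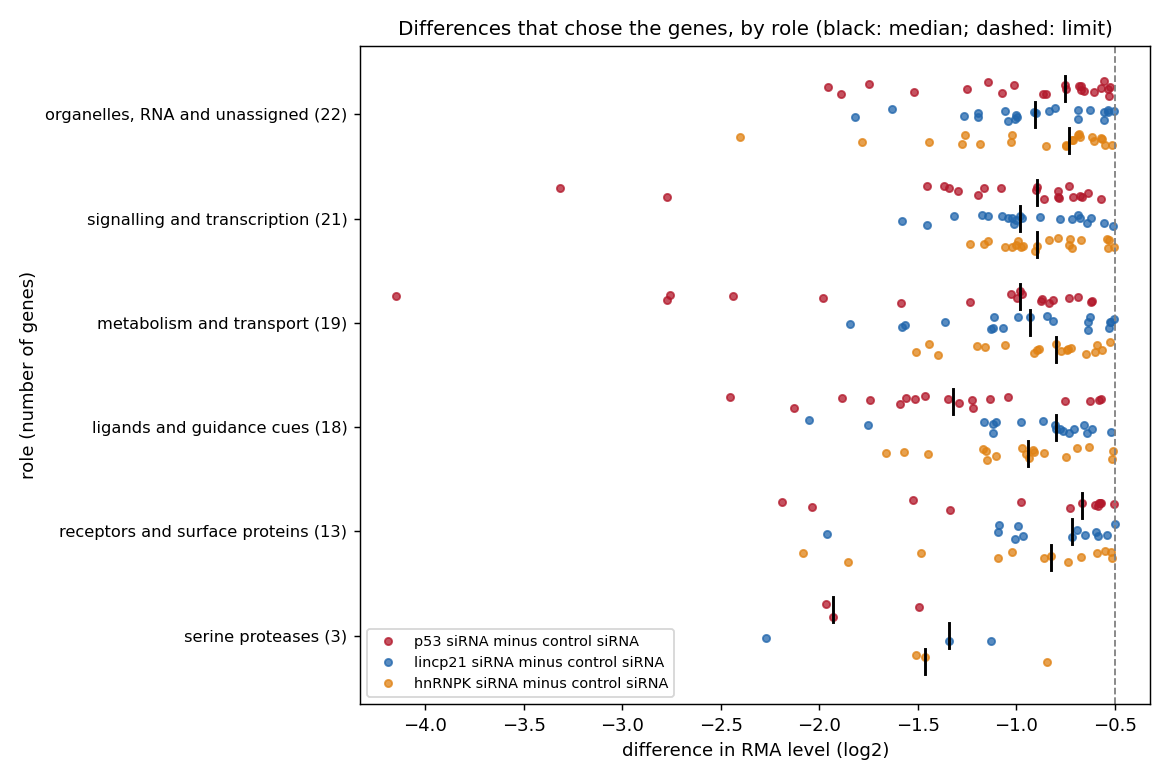
Differences in mean RMA level (log2) from the control siRNA in the hnRNPKKD experiment, for p53 siRNA, lincp21 siRNA and hnRNPK siRNA, with 1 point per gene, the genes grouped by role and the group median as a black bar. All points lie left of the dashed limit at -0.5 because of the rule; the lowest point is Arg2 with p53 siRNA at -4.15.

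The 96 genes were sorted by known role, by hand and with their values in view, so that the sorting supports no claim. The first group is 18 secreted ligands and guidance cues. Their median difference was -1.32 with p53 siRNA, -0.80 with lincp21 siRNA and -0.94 with hnRNPK siRNA, and in 14 of the 18 the p53 siRNA mean was the lowest. Cx3cl1, the membrane-anchored chemokine fractalkine, stood at 7.18, 7.31 and 7.38 with p53 siRNA, 8.18, 8.30 and 8.29 with lincp21 siRNA, 7.60, 7.64 and 8.03 with hnRNPK siRNA, against 9.49, 9.30 and 9.46 with control siRNA. All 9 siRNA arrays lay below the controls, and the p53 siRNA arrays were lowest. Inhba, which encodes a subunit of activin A, stood at 9.94, 10.35 and 9.89 with p53 siRNA, 11.19, 11.24 and 11.01 with lincp21 siRNA, 10.69, 10.76 and 10.92 with hnRNPK siRNA, against 11.96, 11.86 and 12.01 with control siRNA. Its order was the same: p53 siRNA lowest, then hnRNPK siRNA, then lincp21 siRNA, with no overlap between these groups. Fam3c, a secreted cytokine-like protein, ran differently, with 11.73, 11.67 and 11.86 with p53 siRNA, 10.26, 10.38 and 10.20 with lincp21 siRNA, 11.58, 11.65 and 11.69 with hnRNPK siRNA, against 12.37, 12.30 and 12.33 with control siRNA. Its difference of -2.05 with lincp21 siRNA was the lowest of the 18 for that siRNA, beside -0.58 with p53 siRNA. A second Fam3c probe set, with a mean level of 9.40, disagreed, at 1.56 with p53 siRNA, -0.44 with lincp21 siRNA and 0.39 with hnRNPK siRNA. The other ligands included Tslp and Il11 (cytokines), Bmp2, Bmp10 and Hbegf (growth factors), Vegfa, Angpt2 and Angptl4 (vessels and lipid use), Bdnf, Nrn1 and Adcyap1 (neuronal ligands), Sema3e, Sema6d and Sema7a (semaphorins) and Ccbe1, a matrix protein of lymphatic growth.

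**Figure D2:**
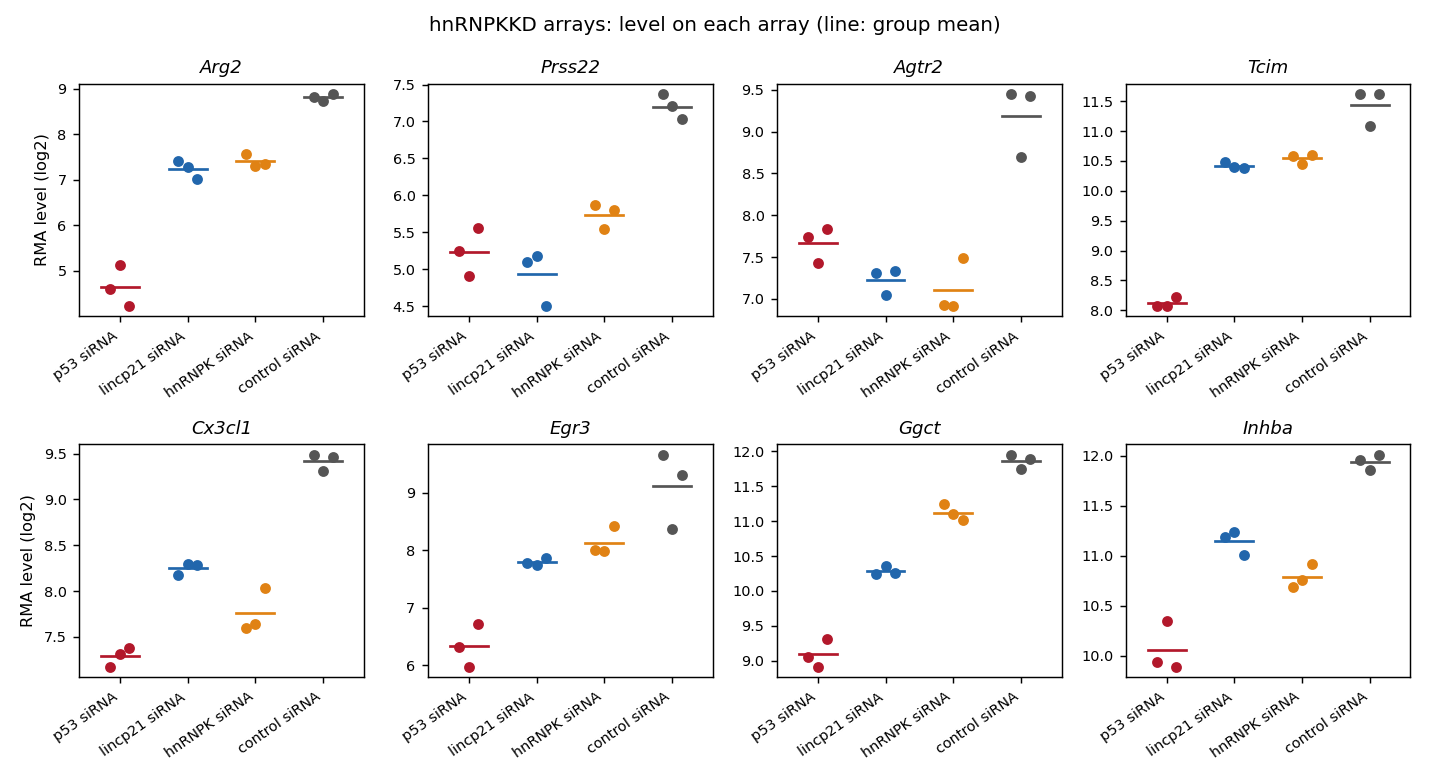
RMA level (log2) of 8 genes on each array of the hnRNPKKD experiment, with 3 arrays each for p53 siRNA, lincp21 siRNA, hnRNPK siRNA and control siRNA and the group mean as a line. Each y axis has its own range and does not start at 0; in Egr3 the second control array, at 8.36, lies below 1 hnRNPK siRNA array, and in the other 7 genes all siRNA arrays lie below all controls.

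The 13 receptors and surface proteins had medians of -0.66 with p53 siRNA, -0.72 with lincp21 siRNA and -0.82 with hnRNPK siRNA. Agtr2, the type 2 angiotensin receptor, led them at 7.75, 7.42 and 7.84 with p53 siRNA, 7.32, 7.05 and 7.33 with lincp21 siRNA, 6.93, 6.92 and 7.49 with hnRNPK siRNA, against 9.45, 8.70 and 9.43 with control siRNA. Here the hnRNPK siRNA mean was the lowest, and the second control array was lower than the other two. Jam2, a junctional adhesion molecule, differed by -1.34 with p53 siRNA, -1.09 with lincp21 siRNA and -1.85 with hnRNPK siRNA. Cd1d1, which presents lipid antigens, differed by -2.04, -1.09 and -1.02 in the same order of siRNAs. Fzd6 (a Wnt receptor), Lgr6 (an R-spondin receptor), Lrig1 (a brake on growth factor receptors), Il18rap (an interleukin-18 receptor chain), Plvap, Emb, Apobr, Tm4sf1 and Cadm4 had differences between -0.50 and -1.48. Other Tm4sf1 probe sets, with mean levels of 8.17 and 5.96, differed by 0.08 and -0.15 with p53 siRNA. They differed by -0.51 and -0.78 with lincp21 siRNA, and by -1.25 and -0.92 with hnRNPK siRNA. The group also held Trbv1, a T-cell receptor segment, whose probe set read 9.10 on average with control siRNA.

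Among 21 genes of signalling and transcription, Tcim, a small regulator of Wnt signalling, was furthest from control, at 8.07, 8.08 and 8.22 with p53 siRNA, 10.48, 10.40 and 10.37 with lincp21 siRNA, 10.58, 10.46 and 10.60 with hnRNPK siRNA, against 11.62, 11.09 and 11.62 with control siRNA. The p53 siRNA arrays lay far below all the others, whose siRNA groups in turn lay below the controls. Egr3, an immediate early transcription factor, stood at 6.31, 5.98 and 6.71 with p53 siRNA, 7.78, 7.73 and 7.87 with lincp21 siRNA, 7.996, 7.98 and 8.42 with hnRNPK siRNA, against 9.66, 8.36 and 9.30 with control siRNA. Its controls spread widely, and 1 hnRNPK siRNA array exceeded the lowest control. A second Egr3 probe set, with a mean level of 5.69, did not show these differences. It was at -0.02 with p53 siRNA, -0.14 with lincp21 siRNA and 0.07 with hnRNPK siRNA. In the lincP21KD experiment that probe set differed from siScramble by 0.22 with siP53 and 0.10 with siLincP21. Rrad, a small GTPase of the RGK family reported as a p53 target in human cells, differed by -1.34 with p53 siRNA, -0.98 with lincp21 siRNA and -0.90 with hnRNPK siRNA. Ier3, a stress-induced survival gene, differed by -1.45, -1.45 and -0.73 in that order. Map2k6 (an activator of p38 kinase), Pak3 (a kinase downstream of Rac and Cdc42), Prkg2 (a cGMP-dependent kinase), Spry4 (an inhibitor of Ras signalling), Rgs16 (an inhibitor of G protein signalling), Nab2 (a corepressor of Egr proteins) and Rest (a repressor of neuronal genes) were in the group too. Over the 21, the lowest difference with lincp21 siRNA was -1.58 and with hnRNPK siRNA -1.23.

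The 19 genes of metabolism and transport held the lowest value of all. Arg2, the mitochondrial arginase, stood at 4.60, 5.14 and 4.24 with p53 siRNA, 7.41, 7.29 and 7.02 with lincp21 siRNA, 7.56, 7.30 and 7.35 with hnRNPK siRNA, against 8.82, 8.72 and 8.88 with control siRNA. The p53 siRNA arrays lay far below all others, and the lincp21 and hnRNPK siRNA arrays overlapped each other. Ggct, an enzyme of glutathione turnover, stood at 9.05, 8.92 and 9.32 with p53 siRNA, 10.24, 10.35 and 10.25 with lincp21 siRNA, 11.24, 11.10 and 11.01 with hnRNPK siRNA, against 11.95, 11.75 and 11.89 with control siRNA. The 4 groups did not overlap. Hs3st1, a heparan sulfate sulfotransferase, differed by -2.76 with p53 siRNA, -0.52 with lincp21 siRNA and -1.44 with hnRNPK siRNA. Mgst2, a glutathione transferase of membranes, differed by -2.44, -1.11 and -0.91 in that order. Ptgs2, the inducible cyclooxygenase of prostaglandin synthesis, differed most with hnRNPK siRNA, at -1.51, beside -0.83 with p53 siRNA and -0.85 with lincp21 siRNA. Akr1c18, a steroid dehydrogenase, differed most with lincp21 siRNA, at -1.84. Egln3, a prolyl hydroxylase of the hypoxia response, differed by -1.02, -0.99 and -1.20. A second Egln3 probe set (mean level 6.04) differed by less, at -0.21, -0.09 and -0.37 with p53, lincp21 and hnRNPK siRNA.

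Of the 3 serine proteases, Prss22, a tryptase, stood at 5.24, 4.91 and 5.56 with p53 siRNA, 5.10, 5.18 and 4.50 with lincp21 siRNA, 5.88, 5.55 and 5.80 with hnRNPK siRNA, against 7.37, 7.21 and 7.03 with control siRNA. Mcpt8, known as a protease of mouse basophils, stood at 7.22, 7.98 and 6.88 with p53 siRNA, 8.08, 8.14 and 7.63 with lincp21 siRNA, 7.68, 7.64 and 8.03 with hnRNPK siRNA, against 9.28, 9.15 and 9.44 with control siRNA. Both genes showed a clear gap between all siRNA arrays and the controls. Prss2, a trypsinogen, differed by -1.49 with p53 siRNA, -1.13 with lincp21 siRNA and -0.84 with hnRNPK siRNA. The other 22 genes encode proteins of organelles, RNA processing or no assigned role. Necap1, a clathrin accessory protein, stood at 8.29, 8.76 and 8.30 with p53 siRNA, 8.81, 8.74 and 8.77 with lincp21 siRNA, 7.37, 7.50 and 7.83 with hnRNPK siRNA, against 9.91, 9.87 and 10.12 with control siRNA. It had the lowest hnRNPK siRNA difference of the 96, at -2.40. Klhl1, an actin-binding protein known from neurons, differed by -1.89, -1.82 and -1.44 with p53, lincp21 and hnRNPK siRNA.

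RefSeq promoter sequences (GRCm38.p6) were available for 66 of the 96 genes and 10201 of all 12674, and the 250 bases before each start were searched for 9 short motifs on both strands, each motif counted on its own. No gene of the 96 lay within 100 kb of another. The TATA box TATAAA was found in 6 of 66 promoters (9.09%), against 6.78% of all. The GC box GGGCGG was found in 66.7%, against 58.9%, and CCAAT in 36.4%, against 36.4%. The AP-1 motif TGANTCA was found in 6.06%, against 4.46%, the CRE half-site TGACG in 19.7%, against 26.9%, and the TEAD motif GGAATG in 3.03%, against 10.6%. The NF-kB motif was found in 9.09%, against 4.34%, the p53 half-site in 6.06%, against 6.08%, and the SRF box in 1.52%, against 1.22%. These counts of at most 6 promoters for most motifs are a description, and a match is not a binding site. The promoters of 3 genes are shown, chosen after their values were seen. They are those, among the genes whose difference between the viruses was called under every alternative, that hold a TATA box, the AP-1 motif or a p53 half-site. Capitals mark these 3 motifs alone, and matches of the other 6 are left in lower case. There is a TATA box in Inhba, the AP-1 motif in Sdcbp2 (syntenin-2, a PDZ adaptor) and a p53 half-site in Ttc9. They are chr13:16011601-16011850 on the + strand, chr2:151572373-151572622 on the + strand and chr12:81630999-81631248 on the + strand, each read 5' to 3' up to the base before the start.
Inhba: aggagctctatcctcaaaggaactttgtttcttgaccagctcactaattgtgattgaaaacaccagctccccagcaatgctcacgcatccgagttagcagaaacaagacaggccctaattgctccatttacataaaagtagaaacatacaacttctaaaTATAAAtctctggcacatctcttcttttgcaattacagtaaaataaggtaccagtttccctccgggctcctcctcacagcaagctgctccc
Sdcbp2: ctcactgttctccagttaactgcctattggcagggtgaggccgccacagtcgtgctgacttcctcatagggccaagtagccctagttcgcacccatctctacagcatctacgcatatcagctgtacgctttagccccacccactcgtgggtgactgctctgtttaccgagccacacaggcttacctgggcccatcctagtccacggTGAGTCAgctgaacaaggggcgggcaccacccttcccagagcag
Ttc9: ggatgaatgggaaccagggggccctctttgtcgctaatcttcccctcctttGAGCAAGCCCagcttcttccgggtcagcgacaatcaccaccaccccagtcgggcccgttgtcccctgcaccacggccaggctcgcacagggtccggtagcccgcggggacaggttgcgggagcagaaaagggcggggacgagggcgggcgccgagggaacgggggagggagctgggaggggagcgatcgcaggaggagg

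The lincP21KD experiment repeated p53 and lincRNA-p21 knockdown on arrays that the rule did not use. Fitted with limma over all 12674 genes and called at a Benjamini-Hochberg adjusted p below 0.05, 25 of the 96 genes fell with siP53 relative to siScramble and 1 rose. This is 26.0% lower, against a background of 5.74%, and 1.04% higher, against 7.01%. The median difference over the 96 was -0.20, against 0.02 over all genes, and 71 were below 0. At least 0.5 lower were 18 of the 96 (18.8%), against 2.90% of all genes. With only 2 siScramble arrays the count rested on each of them: without siScramble array 1 it was 12, and without array 2 it was 18. Cdkn1a served as the check, and its difference was -2.07 ± 0.11 (SE, adjusted p = 4.91e-06). Hnrnpk differed by 0.02 ± 0.11 (SE, adjusted p = 0.941).

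The rule asks for high levels on the hnRNPKKD controls only, and some of the 96 were near background elsewhere, where a fall has little room. In the lincP21KD experiment 17 of the 96 averaged below 5.563, the median of all probe sets. Of these 17, 2 fell with siP53 (11.8%, against 1.87% of all genes at such levels) and 2 with siLincP21 (11.8%, against 0.962%). Of the other 79, 23 fell with siP53 (29.1%, against 6.41% of all genes at such levels) and 34 with siLincP21 (43.0%, against 4.98%).

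Inhba fell most surely. Its levels were 10.67, 10.52 and 10.49 with siP53, 10.996, 11.14 and 11.04 with siLincP21, against 11.59 and 11.76 with siScramble. The 3 groups did not overlap, and the siP53 arrays were lowest. The difference was -1.11 ± 0.09 (SE, adjusted p = 7.07e-05) for siP53. Tcim fell more in size, with 7.54, 7.62 and 8.25 with siP53, 8.63, 8.49 and 8.76 with siLincP21, against 9.15 and 9.06 with siScramble. Its difference was -1.30 ± 0.18 (SE, adjusted p = 0.0014). Ostm1, a partner of the lysosomal chloride transporter ClC-7, fell by 0.88 ± 0.10 (SE, adjusted p = 0.000447). Car2, a carbonic anhydrase, stood at 5.67, 5.50 and 6.08 with siP53, 5.74, 5.66 and 5.82 with siLincP21, against 6.85 and 6.65 with siScramble. Both knockdowns lay well below siScramble, and the siP53 difference was -0.997 ± 0.15 (SE, adjusted p = 0.002). Necap1 differed by -0.82 ± 0.12 (SE, adjusted p = 0.0021), Pak3 by -0.56 ± 0.09 (SE, adjusted p = 0.0023) and Rrad by -0.63 ± 0.10 (SE, adjusted p = 0.0029). Ptgs2 differed by -0.85 ± 0.14 (SE, adjusted p = 0.0034). Each of these calls was kept under every alternative in which the gene was tested, as were 11 of the 26 calls in all. Ggct differed by -0.65 ± 0.10 (SE, adjusted p = 0.003), and only the mean over its probe sets ended that call. Arg2, lowest in the hnRNPKKD experiment, differed by -0.74 ± 0.19 (SE, adjusted p = 0.0293), and the call ended without siScramble array 1. Its levels there were 4.31, 4.30 and 4.52 with siP53, 4.48, 4.60 and 4.60 with siLincP21, against 5.52 and 4.71 with siScramble, near the limit of the filter on low values, 4.544. Slc9a3r1, the scaffold NHERF1, was the 1 gene that rose, by 0.62 ± 0.08 (SE, adjusted p = 0.0011), although it was lower with all 3 siRNAs in the hnRNPKKD experiment.

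With siLincP21, 36 of the 96 genes fell relative to siScramble and 0 rose. This is 37.5% lower, against a background of 4.39%, and for higher calls the background was 7.47%. At an unadjusted p below 0.05, 3 of the 96 were higher, and the share of all genes at that threshold was not computed. The median difference was -0.29, against 0.01 over all genes, and 76 were below 0. At least 0.5 lower were 31 (32.3%), against 2.00% of all genes. Over all genes the calls split into 556 lower and 947 higher, and into 794 lower and 669 higher once arrays were centred on their medians, with 39 of the 96 then lower and 0 higher. The count of 36 rested on the 2 siScramble arrays, which this comparison shares with the siP53 comparison: without array 1 it was 6 and without array 2 it was 13. Without siLincP21 array 1 it was 22. The direction did not turn in any of these.

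Of the 36 calls, those of Fam3c, Car2, Inhba and Sdcbp2 were kept under every alternative in which the gene was tested. Fam3c stood at 11.20, 11.18 and 11.19 with siP53, 10.41, 10.63 and 10.49 with siLincP21, against 11.56 and 11.52 with siScramble. The siLincP21 arrays were lower than all others, and the siLincP21 difference was -1.03 ± 0.08 (SE, adjusted p = 0.000383). The second Fam3c probe set differed from siScramble by -0.32 with siLincP21 and by 0.65, the other way, with siP53. Car2 differed by -1.01 ± 0.15 (SE, adjusted p = 0.0031), and Inhba by -0.62 ± 0.09 (SE, adjusted p = 0.003). Sdcbp2 stood at 5.72, 5.70 and 5.78 with siP53, 5.29, 5.25 and 5.20 with siLincP21, against 6.19 and 5.75 with siScramble. Its siLincP21 difference was -0.72 ± 0.12 (SE, adjusted p = 0.0045). Rrad differed by -0.64 ± 0.10 (SE, adjusted p = 0.0037), Angptl4, an inhibitor of lipoprotein lipase, by -0.86 ± 0.13 (SE, adjusted p = 0.0039), Necap1 by -0.78 ± 0.12 (SE, adjusted p = 0.0042) and Egln3 by -0.56 ± 0.10 (SE, adjusted p = 0.0062). These last 4 calls ended without siScramble array 1. The second Egln3 probe set differed from siScramble by -0.14 with siLincP21. Of the proteases, Prss22 differed by -0.70 ± 0.15 (SE, adjusted p = 0.0146) and Mcpt8 by -0.58 ± 0.15 (SE, adjusted p = 0.0338), and both calls ended without either siScramble array. Hnrnpk and Cdkn1a differed by -0.04 ± 0.11 (SE, adjusted p = 0.881) and 0.01 ± 0.11 (SE, adjusted p = 0.981).

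**Figure D3:**
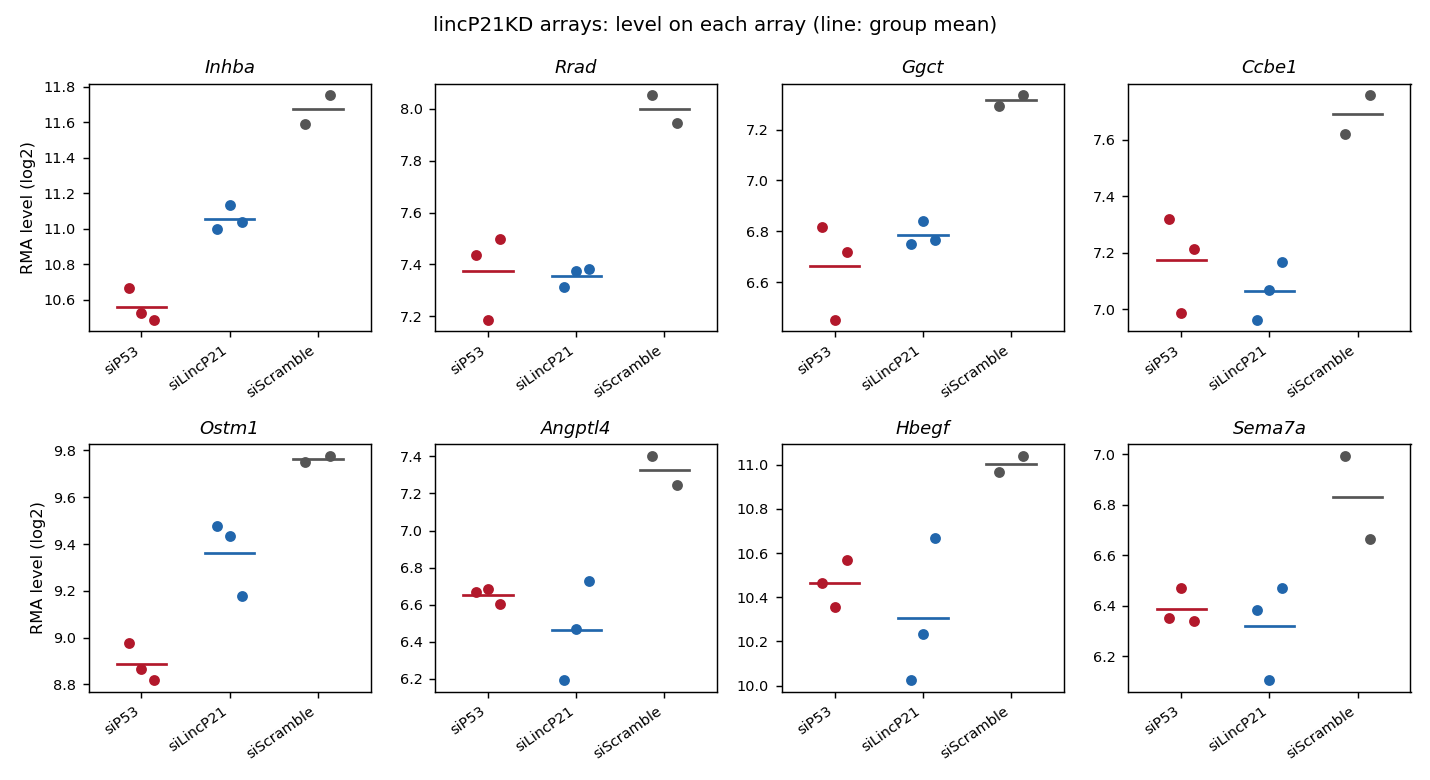
RMA level (log2) of 8 genes on each array of the lincP21KD experiment, with 3 arrays for siP53, 3 for siLincP21 and 2 for siScramble and the group mean as a line; each y axis has its own range and does not start at 0. In all 8 genes both knockdowns lie below both siScramble arrays, and in Inhba and Ostm1 the siP53 arrays also lie below the siLincP21 arrays.

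The genes in the plot of lincP21KD levels are those that were called lower with each siRNA and called between the viruses. Beside the genes already given, Ccbe1 stood at 7.32, 6.99 and 7.21 with siP53, 6.96, 7.07 and 7.17 with siLincP21, against 7.62 and 7.76 with siScramble, with a difference of -0.52 ± 0.11 (SE, adjusted p = 0.0123) for siP53 and -0.62 ± 0.11 (SE, adjusted p = 0.0064) for siLincP21. Hbegf, a ligand of the EGF receptor, differed by -0.54 ± 0.16 (SE, adjusted p = 0.0495) and -0.70 ± 0.16 (SE, adjusted p = 0.0196). Sema7a, a membrane-anchored semaphorin, differed by -0.44 ± 0.13 (SE, adjusted p = 0.0473) and -0.51 ± 0.13 (SE, adjusted p = 0.0285). Both comparisons use the same 2 siScramble arrays, so these pairs of values are not independent of each other. The calls of Ccbe1, Hbegf and Sema7a ended without siScramble array 1 or array 2 in at least 1 of the comparisons.

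The direct comparison of siP53 with siLincP21 uses no siScramble array. Of the 96 genes, 11 were lower with siP53 (11.5%, against a background of 11.2%) and 20 were higher (20.8%, against 9.22%). Once arrays were centred on their medians, 11 were lower and 27 higher, beside 1019 lower and 1834 higher over all genes in place of 1422 and 1168. Among the lower genes, Pak3 differed by -0.59 ± 0.08 (SE, adjusted p = 0.000598), Inhba by -0.50 ± 0.08 (SE, adjusted p = 0.0021), Ostm1 by -0.48 ± 0.09 (SE, adjusted p = 0.0048) and Tcim by -0.82 ± 0.16 (SE, adjusted p = 0.0063). Cd1d1 differed by -0.82 ± 0.16 (SE, adjusted p = 0.0064) and Zfp462, a zinc finger protein, by -0.47 ± 0.10 (SE, adjusted p = 0.0085). Among the genes higher with siP53 than with siLincP21, Fam3c differed by 0.68 ± 0.07 (SE, adjusted p = 0.000212) and Nrn1, a neurite-promoting surface protein, by 0.94 ± 0.13 (SE, adjusted p = 0.001). Nrn1 stood at 8.09, 8.13 and 7.88 with siP53, 7.31, 7.13 and 6.84 with siLincP21, against 7.49 and 7.85 with siScramble. Its siLincP21 arrays lay below siScramble while its siP53 arrays lay above. Fabp4, a fatty acid carrier, differed by 0.59 ± 0.10 (SE, adjusted p = 0.0026), Ank, which exports pyrophosphate, by 0.57 ± 0.12 (SE, adjusted p = 0.0074), Tm4sf1 by 0.48 ± 0.07 (SE, adjusted p = 0.0015) and Sdcbp2 by 0.49 ± 0.10 (SE, adjusted p = 0.009). Each of these 12 calls was kept under every alternative in which the gene was tested.

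The same difference, p53 minus lincRNA-p21 knockdown, can be set beside its value in the hnRNPKKD experiment, which shares no array with it. Across the 96 genes the Pearson correlation was 0.477 and the Spearman correlation 0.360, against 0.646 and 0.550 across all 12674 genes. The sign was the same in 58.3% of the 96, against 67.8% of all genes. Genes are not independent replicates, so these values describe the arrays. The hnRNPKKD values of the 96 come from 2 contrasts that the rule used, and the rule limits them. Their lower correlation and share of equal signs are therefore no result about the 96. Tcim differed by -2.29 in the hnRNPKKD experiment and -0.82 in the lincP21KD experiment, Fam3c by 1.47 in the hnRNPKKD experiment and 0.68 in the lincP21KD experiment, Cd1d1 by -0.95 in the hnRNPKKD experiment and -0.82 in the lincP21KD experiment and Inhba by -1.08 in the hnRNPKKD experiment and -0.50 in the lincP21KD experiment. Nrn1 had opposite signs, with -0.40 in the hnRNPKKD experiment and 0.94 in the lincP21KD experiment, as did Pak3, with 0.11 in the hnRNPKKD experiment and -0.59 in the lincP21KD experiment. Arg2, with -2.58 in the hnRNPKKD experiment and -0.18 in the lincP21KD experiment, differed in size between the experiments.

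The time course asked whether the genes differ between cells with restored p53 and cells without it. Of the 96, 33 rose in AdenoCRE cells relative to AdenoGFP cells and 5 fell. This is 34.4% higher, against a background of 12.9%, and 5.21% lower, against 6.24%. The median difference over the 96 was 0.21, against 0.04 over all genes, and 74 were above 0. The scaling bears on this count. With arrays centred on their medians, 25 rose and 8 fell, and the split over all genes turned to 1116 higher and 1351 lower, against 1636 and 791 as deposited. With quantile scaling 26 rose and 7 fell. Centring moved the median of all genes to -0.07 and that of the 96 to 0.11. The medians over the 96 at 0, 1, 3, 6 and 9 h were 0.13, 0.24, 0.15, 0.27 and 0.24, the first of them in untreated cells. Without the 3 h pair 20 rose and 1 fell, and without the 9 h pair 21 rose and 1 fell. In the time course 8 of the 96 averaged below 4.544, the limit of the filter on low values, and of these 0 rose and 2 fell. Of all genes at such levels 3% rose and 2.1% fell. Cdkn1a rose by 3.85 ± 0.15 (SE, adjusted p = 3.5e-05), and Hnrnpk differed by -0.33 ± 0.12 (SE, adjusted p = 0.0819).

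**Figure D4:**
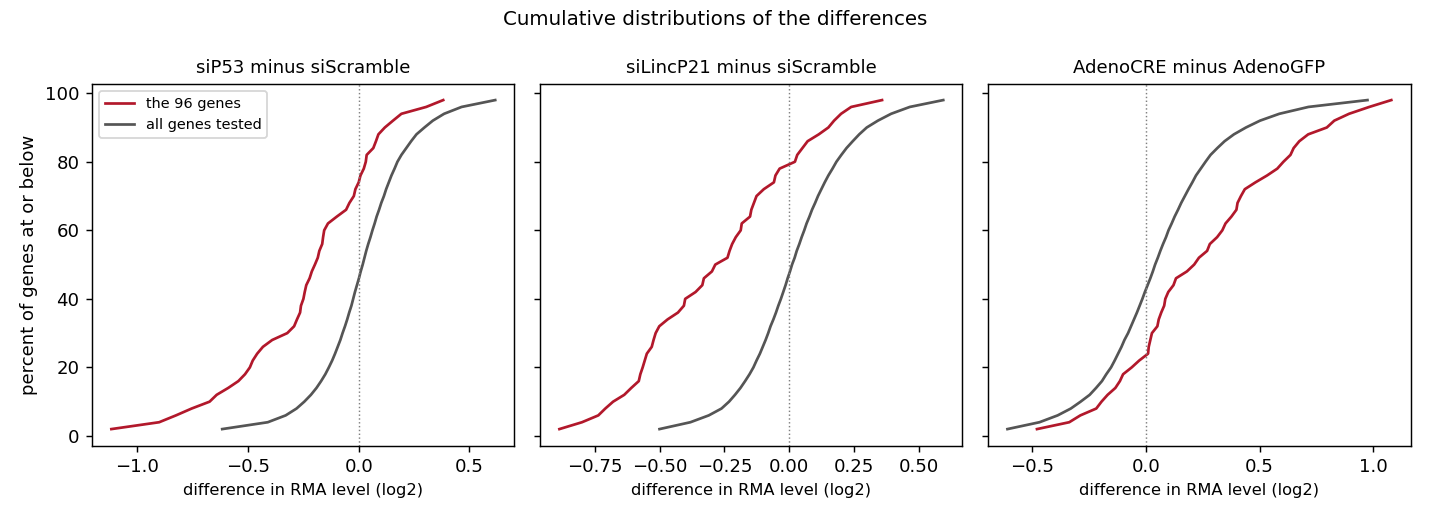
Cumulative percent of genes (y axis) at or below a difference in RMA level (log2, x axis), for the 96 genes and for all 12674 genes tested, in siP53 minus siScramble, siLincP21 minus siScramble and AdenoCRE minus AdenoGFP. The curve of the 96 lies left of that of all genes in both siRNA panels, with medians of -0.20 and -0.29, and right of it in the virus panel, with a median of 0.21.

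Over all genes 12.9% rose and 6.24% fell in AdenoCRE cells. The roles were sorted with values in view, so the counts by role below support no contrast between roles. Of the ligands 10 of 18 rose and 0 fell in AdenoCRE cells. Of the metabolic genes 8 of 19 rose and 0 fell, and of the signalling genes 3 of 21 rose and 3 fell. Of the proteases 2 of 3 rose, of the receptors 3 of 13 rose and 1 fell, and of the other 22 genes 7 rose and 1 fell. Inhba stood at 12.02, 11.53, 12.13, 11.57 and 11.86 in AdenoCRE cells at 0, 1, 3, 6 and 9 h, against 10.996, 11.03, 11.32, 10.77 and 10.77 in AdenoGFP cells. The AdenoCRE value was higher at all 5 times, and the difference was 0.85 ± 0.10 (SE, adjusted p = 0.0021). Ttc9, a tetratricopeptide protein, had the highest difference of the 96, with 9.69, 9.54, 10.13, 10.11 and 10.07 in AdenoCRE cells at 0, 1, 3, 6 and 9 h, against 8.34, 7.62, 8.67, 8.66 and 8.38 in AdenoGFP cells. Its difference was 1.57 ± 0.10 (SE, adjusted p = 0.000186). Sdcbp2 stood at 7.49, 7.68, 8.29, 8.42 and 9.07 in AdenoCRE cells at 0, 1, 3, 6 and 9 h, against 6.71, 6.24, 7.17, 7.19 and 7.71 in AdenoGFP cells. It was higher at every time, with the highest value of either virus at 9 h, and its difference was 1.18 ± 0.11 (SE, adjusted p = 0.000701). Slc35d1, a carrier of nucleotide sugars, differed by 1.07 ± 0.13 (SE, adjusted p = 0.0021), Mcpt8 by 1.05 ± 0.09 (SE, adjusted p = 0.000585) and Ggct by 0.97 ± 0.13 (SE, adjusted p = 0.0026). Sat1, which acetylates polyamines, differed by 0.82 ± 0.09 (SE, adjusted p = 0.0015), and Rrad by 0.65 ± 0.11 (SE, adjusted p = 0.0081). These 8 calls were kept under every alternative in which the gene was tested.

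Sema7a differed by 0.73 ± 0.09 (SE, adjusted p = 0.0024), Ccbe1 by 0.89 ± 0.12 (SE, adjusted p = 0.0033), Hbegf by 0.67 ± 0.09 (SE, adjusted p = 0.0028) and Ostm1 by 0.58 ± 0.10 (SE, adjusted p = 0.0074), and these 4 calls ended once the pairing by time was dropped. Angptl4 differed by 0.40 ± 0.11 (SE, adjusted p = 0.0426), and that call ended without any one of the 5 pairs. The 5 genes that fell were Zfp462, with a difference of -0.64 ± 0.12 (SE, adjusted p = 0.0111), Agtr2, Map2k6, Prkg2 and AI467606. Agtr2 stood at 4.35, 4.56, 4.71, 3.81 and 3.68 in AdenoCRE cells at 0, 1, 3, 6 and 9 h, against 4.52, 4.89, 5.19, 4.56 and 4.87 in AdenoGFP cells. The AdenoCRE value was lower at all 5 times, by most at 6 and 9 h, and the difference was -0.59 ± 0.14 (SE, adjusted p = 0.0258). Several of these levels lay below 4.544, the limit of the filter on low values. The Agtr2 call ended without the 3, 6 or 9 h pair. Map2k6 differed by -0.47 ± 0.12 (SE, adjusted p = 0.0279) and Prkg2 by -0.31 ± 0.09 (SE, adjusted p = 0.0477). AI467606 averaged 4.31 in AdenoCRE cells and 4.59 in AdenoGFP cells, with a difference of -0.28 ± 0.08 (SE, adjusted p = 0.037). Agtr2 and AI467606 are the 2 called lower among the 8 that averaged below the filter limit in the time course, and AI467606 passed that filter through its hnRNPKKD levels.

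**Figure D5:**
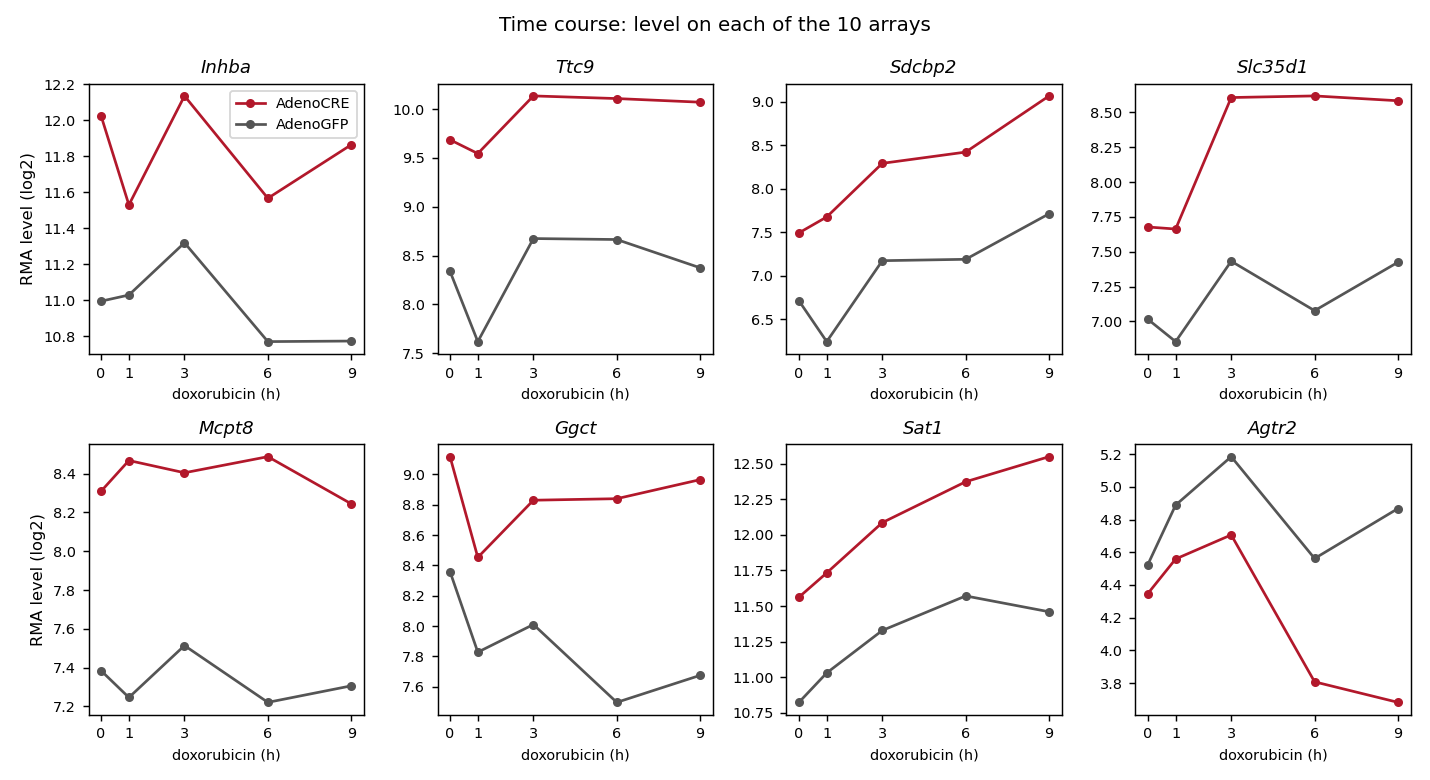
RMA level (log2) of 8 genes against hours of doxorubicin in AdenoCRE cells and AdenoGFP cells, with 1 array per point; each y axis has its own range and does not start at 0. In the first 7 genes the AdenoCRE line lies above the AdenoGFP line at all 5 times, and in Agtr2 it lies below.

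A slope over the hours of doxorubicin was called in AdenoCRE cells for 7 of the 96 genes, all upward (7.29%, against a background of 3.95%), and for 0 downward, against 1.45%. At an unadjusted p below 0.05, 7 had a downward slope. The 7 upward genes were Ostm1, at 0.11 ± 0.01 (SE, adjusted p = 0.0042) per h, Sdcbp2, at 0.17 ± 0.03 (SE, adjusted p = 0.013) per h, Sat1, at 0.11 ± 0.02 (SE, adjusted p = 0.0171) per h, and Cadm4, Angpt2, Hs3st1 and Prss2. Without the 0 h pair the count was 1 upward, without the 1 h pair 3 upward, and without the 9 h pair 2 upward and 1 downward. In AdenoGFP cells 0 of the 96 had a called slope, against 0.00789% of all genes. The difference between the slopes was called for 0 of the 96, against 0.181%, so a different rate of change in the viruses was not shown for any of them. The limma counts at an unadjusted p below 0.05 were 5 downward and 13 upward for AdenoGFP slopes and 1 downward and 7 upward for the difference of slopes. Shares of all genes at an unadjusted p below 0.05 were not computed. The unadjusted slope counts, that for AdenoCRE included, therefore have no background share and are no result about the 96.

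The siRNA and virus comparisons rest on separate arrays. Of the 25 genes that fell with siP53, 11 rose with AdenoCRE, which is 44.0% of the 25 and 33.3% of the 33 that rose. Over all genes the shares were 53.2% of those that fell with siP53 and 23.7% of those that rose. Of the 36 genes that fell with siLincP21, 17 rose with AdenoCRE, which is 47.2% of the 36 and 51.5% of the 33. Over all genes these shares were 20.7% and 7.03%. In all, 59 of the 96 were called, in either direction, in at least 1 of the siP53, siLincP21 and virus comparisons. The other 37 were called in none of them. The 59 include Slc9a3r1, which rose with siP53, and Agtr2 and Map2k6, which were called only as lower in AdenoCRE cells. Over all genes 1615, 1503 and 2427 were called in these comparisons, in that order. The share of all genes called in at least 1 was not computed, so the 59 have no background share. Klhl1, Egr3, Hs3st1 and Mgst2, among the 12 lowest in the hnRNPKKD experiment, were in none. Egr3 stood at 5.70, 5.95 and 7.17 with siP53, 6.14, 6.43 and 7.08 with siLincP21, against 7.75 and 7.09 with siScramble. One siP53 array and 1 siLincP21 array lay close to the lower siScramble array, and the siP53 difference was -1.15 ± 0.41 (SE, adjusted p = 0.0994). Klhl1 averaged 4.89 with siP53 and 4.93 with siLincP21, against 4.85 with siScramble. It averaged 3.81 in AdenoCRE cells and 3.93 in AdenoGFP cells. It passed the filter through its hnRNPKKD levels, so a missing call elsewhere says little. Its difference was 0.04 ± 0.14 (SE, adjusted p = 0.907) for siP53 and 0.08 ± 0.14 (SE, adjusted p = 0.768) for siLincP21. Vegfa, the vessel growth factor, differed by -0.21 ± 0.11 (SE, adjusted p = 0.267) and -0.02 ± 0.11 (SE, adjusted p = 0.942).

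Lists of related genes hold at most 3 of the 96 each, and 0.781% of all genes were past the limit. Over all genes, 5.74% fell and 7.01% rose with siP53, and 4.39% fell and 7.47% rose with siLincP21. Between the viruses 12.9% of all genes rose and 6.24% fell with AdenoCRE. The lists were chosen with earlier results of these data known, so the counts below are a description. The list of 23 immediate early genes holds Egr3 and Ier3. In it 9 genes fell with siP53, 6 fell with siLincP21, 0 rose in either, and 6 rose and 0 fell with AdenoCRE. Ier3 differed by -0.43 ± 0.08 (SE, adjusted p = 0.0085) for siP53 and -0.44 ± 0.08 (SE, adjusted p = 0.0092) for siLincP21. Among 24 measured genes of hypoxia and glycolysis, which hold Egln3, Ankrd37 and Vegfa, 1 fell and 4 rose with siP53, 2 fell and 3 rose with siLincP21, and 3 rose and 2 fell with AdenoCRE. Ankrd37, an ankyrin repeat protein induced by hypoxia, differed by 0.38 ± 0.10 (SE, adjusted p = 0.034) between the viruses. The 20 measured inflammatory genes hold Ptgs2, and 3 fell and 3 rose with siP53, while 5 fell and 2 rose with siLincP21. Of 27 measured receptor tyrosine kinases and growth factors, which hold Hbegf and Vegfa, 4 fell and 10 rose with siP53. Bmp2 is the 1 member among 29 measured Wnt, Notch and BMP genes, and it differed by 0.38 ± 0.15 (SE, adjusted p = 0.13) for siP53, -0.23 ± 0.15 (SE, adjusted p = 0.374) for siLincP21 and 0.44 ± 0.10 (SE, adjusted p = 0.0235) between the viruses. Its mean with siScramble was 4.99, below the median of all probe sets. The lists of 31 mitotic genes, 40 measured DNA replication genes, 31 measured interferon response genes and 17 measured sterol synthesis genes hold 0 of the 96. With 0.781% of all genes past the limit, 0 in lists of these sizes is near the background share.

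The cells carried fibroblast markers. All 10 listed markers passed the filter, and their summed signal (log2) in the hnRNPKKD experiment lay between 15.6 and 15.7 with p53 siRNA, 15.4 and 15.5 with lincp21 siRNA, 15.6 and 15.6 with hnRNPK siRNA, against 15.5 and 15.6 with control siRNA. Of 10 macrophage markers 6 passed, and their sum lay between 8.12 and 8.66 with p53 siRNA, 9.48 and 9.84 with lincp21 siRNA, 9.57 and 9.63 with hnRNPK siRNA, against 9.62 and 9.83 with control siRNA. The adipocyte list, which holds Fabp4, lay between 8.79 and 9.76 with p53 siRNA, 9.59 and 9.79 with lincp21 siRNA, 9.69 and 9.76 with hnRNPK siRNA, against 10.06 and 10.13 with control siRNA. The neural list lay between 10.5 and 11.4 with p53 siRNA, 10.8 and 11.1 with lincp21 siRNA, 11.8 and 11.9 with hnRNPK siRNA, against 10.97 and 11.2 with control siRNA. The chondrocyte list lay between 8.17 and 8.34 with p53 siRNA, 8.65 and 8.82 with lincp21 siRNA, 9.06 and 9.23 with hnRNPK siRNA, against 8.84 and 8.93 with control siRNA. In the lincP21KD experiment the macrophage list lay between 9.10 and 9.18 with siP53 and 9.54 and 9.60 with siLincP21, against 9.61 and 9.62 with siScramble. The neural list there lay between 10.7 and 10.8 with each knockdown, against 10.39 and 10.40 with siScramble. In the time course the endothelial list lay between 8.40 and 9.08 in AdenoCRE cells and 7.98 and 8.40 in AdenoGFP cells, the macrophage list between 8.68 and 9.51 in AdenoCRE cells and 8.58 and 8.87 in AdenoGFP cells, and the adipocyte list between 9.40 and 10.03 in AdenoCRE cells and 9.06 and 9.33 in AdenoGFP cells. The highest gene of a list weighs most in its sum, so a sum can follow 1 gene. Fabp4 averaged 8.81, against a median of 4.99 over the adipocyte list, and Cd14 7.66, against 5.28 over the macrophage list. Stmn2 averaged 9.51, against 6.02 over the neural list, and Eng 7.08, against 4.00 over the endothelial list. Fabp4 is among the 96, so the lower adipocyte sums in the hnRNPKKD experiment partly restate the rule. The part of these lists in the differences of the 96 genes was not tested. Of the endothelial and epithelial lists 2 of 8 and 1 of 6 genes passed the filter. Other probe sets, present for 56 of the 96 genes, were read on the same hnRNPKKD arrays that chose the genes. Their counts therefore partly follow from the rule and are no separate evidence. The share over all probe sets was not computed. Disagreeing probe sets are given above for Fam3c, Egr3, Egln3 and Tm4sf1 only. Of 69 such probe sets above the filter, 61 were lower with all 3 siRNAs of the hnRNPKKD experiment and 32 were at least 0.5 lower with each.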

How the data were processed

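RNA was measured on 30 Affymetrix arrays. The deposited values are log2 signal made by the authors with RMA, per the submitters' processing notes. The RMA version, the genome build and whether the experiments were normalised together are not given in the sources used here. The median over all probe sets of each array lay between 4.832 and 4.914 in hnRNPKKD, 5.546 and 5.656 in lincP21KD and 4.976 and 5.032 in the time course, so tests were made within experiments only, and levels set beside each other between experiments carry this shift. On arrays the number of arrays limits the precision.

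Of 45101 probe sets, 34958 had 1 gene symbol, 932 several and 9211 none. For 34754 probe sets the gene was found in RefSeq (GRCm38.p6) and its RefSeq symbol was used. How many symbols changed was not counted. Each of 18194 genes kept its probe set with the highest mean, and a mean above the 40th percentile (4.544) left 12674. No member was lost to that filter, since it is part of the rule.

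All fits used limma 3.58.1 (R 4.3.3): the 8 lincP21KD arrays in 1 fit of 3 groups, and the 10 time course arrays with time as a block for the virus effect, and with slopes per h within each virus. P-values were adjusted over all 12674 genes (Benjamini-Hochberg), and "rose" and "fell" mean an adjusted p below 0.05. Alternatives covered scaling, the filter, the probe set rule, variance and weight settings, the replicate and time blocks, and leaving out each array or time.

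The members and lists were chosen with earlier results of these data known. Named are the 12 genes lowest on average in hnRNPKKD, up to 8 calls with the smallest adjusted p per comparison and direction, up to 8 genes called lower with each lincP21KD siRNA and called between viruses, the 4 genes on either side of the limit, and up to 4 members per list. Other members are named for their role, chosen after their values were seen. The p53 and lincRNA-p21 transcripts, Bax, Gdf15 and Ccnb1 are not analysed here.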

Additional observations from a re-analysis of the deposited data

Results flagged for a closer look

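Among 18 sets of 5 differences between AdenoCRE and AdenoGFP cells, 1 had a value that stood apart from the other four. For Sat1, which acetylates polyamines, the difference at 9 h was 1.09 on the log2 scale. Its gap to the nearest other difference made up 0.743 of the whole range. Chance marks about 1 in 20 such sets.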

How the results depend on the processing

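The limit sets the size of the group: a limit of 0.3 gave 336 genes, 0.7 gave 45 and 1.0 gave 13. Leaving out 1 hnRNPKKD array gave 91 to 131 genes. Mean values over probe sets gave 76 genes, 67 of them among the 96, and the other scalings and filters gave 75 to 112.

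Leaving out 1 lincP21KD array gave 12 to 30 members lower and 1 to 1 higher with siP53, and 620 to 2032 calls over all genes. For siLincP21 it gave 6 to 39 lower and 0 to 2 higher, and 286 to 1387 over all genes. For siP53 minus siLincP21 it gave 9 to 14 lower and 14 to 21 higher, and 1627 to 2345 over all genes. Array weights gave 2 members higher with siP53 and 3 with siLincP21, and 2430 calls over all genes with siLincP21, against 1503. The labels do not say whether the replicate numbers pair the arrays, and the main fit did not pair them. Same-numbered arrays had correlations of their deviations of -0.218 and -0.211 (siP53 with siScramble), 0.031 and 0.127 (siLincP21 with siScramble) and 0.212, 0.054 and 0.341 (siP53 with siLincP21). The 2 siScramble arrays deviate from their mean by mirrored amounts, so these few values cannot settle the pairing. With the replicate block, 36 members were lower and 2 higher with siP53, and 42 lower and 2 higher with siLincP21. For siP53 minus siLincP21 the block gave 3052 calls over all genes, against 2590.

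Leaving out 1 pair of the time course gave 20 to 27 members higher and 1 to 4 lower with AdenoCRE, and 1146 to 2055 calls over all genes. Without the time block 15 members were higher and 1 lower, of 1304 calls. Members lower were 8 with array weights, 8 with centring, 3 without the lowest 60 percent of probe sets and 3 with mean probe sets. For the AdenoCRE slope the pairs left out gave 1 to 6 members higher, 0 to 1 lower and 204 to 424 calls. Trend and robust variances gave 2 lower, and log2 hours gave 439 calls over all genes. The AdenoGFP slope had 2 calls with centring, 2 with quantile scaling, and 0 with log2 hours or with any pair left out. For the difference of slopes, calls over all genes were 23, and 1 with array weights, 43 with centring, 5 with log2 hours, 9 without the lowest 60 percent, 36 with quantile scaling and 41 with trend and robust variances, with 1 member under centring. Pairs left out gave 0 to 19. The cause of these changes was not tested.

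The values of 66 named results kept their sign in all 979 recomputations, and 91 were no longer past the threshold, 65 of them on leaving out an array or a time. Calls were kept under every alternative for 11 of 26 genes with siP53, 4 of 36 with siLincP21, 18 of 31 between them, 13 of 38 between viruses and 0 of 7 slopes.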

Other observations

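Both siRNA experiments followed the same schedule of virus, siRNA and doxorubicin. The labels do not say whether the control siRNA and siScramble were the same siRNA. Of the 96 genes, 78 stood higher and 18 lower in the hnRNPKKD controls than in the siScramble arrays of lincP21KD. The median of hnRNPKKD control siRNA minus lincP21KD siScramble was 0.80 over the 96, against -0.34 over all 12674 genes, and 42 of the 96 (43.8%) were over 1 higher, against 5.22% of all genes. For p53 siRNA minus siP53 the median was -0.02, against -0.37, and for lincp21 siRNA minus siLincP21 it was 0.07, against -0.33. The rule asks for high hnRNPKKD controls, and the array medians differ between the experiments, so no test was made. The gap was 4.55 for Ggct, 4.998 for Bmp2 and 4.33 for Il11. These 3 genes were chosen after their values were seen. Their siScramble means were 7.32, 4.99 and 4.89, and the last 2 of these lay below the median of all probe sets in lincP21KD.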
